A study of Mus musculus with 18 samples.

Results

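The baseline miRNA repertoire of Baf3 cells was read from the 6 control libraries of a series of 18. Baf3 is a mouse pro-B cell line that depends on interleukin-3 for growth. The members were chosen by their labels alone, as all libraries of cells that carried a control guide RNA. All 1006 miRNA entries of the count table were described, and its 4 spike-in entries were left out of every share. The control guides target Rag1, a recombinase gene that per the study design has no part in making miRNAs, and the labels give the control genotype as Rag1_KO. The control cells were 2 polyclonal populations, one for each guide, and each population gave 3 libraries, 1 in each of 3 labelled batches. They were compared with 6 libraries of cells with guides against both Safb genes (SAFB below) and 6 with guides against Erh (ERH below), also from 2 populations each. All groups were grown in excess interleukin-3, carried reporters for altered forms of miR-15a and miR-16, were transduced with Cas9 and were selected with puromycin. The knockout populations were sorted on a derepressed miR-15a reporter and regrown, and the labels do not say how control cells were sorted, so sorting and gene loss cannot be told apart in any comparison with them. Libraries of a population are labelled by batch only, so p-values measure the spread between these libraries, part of which may be technical. Tests between genotypes take libraries, not the 2 populations of each genotype, as replicates.

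A miRNA is cut from a hairpin in a longer transcript, first by Drosha in the nucleus and then by Dicer, and one strand is kept in an Argonaute protein. The seed, bases 2 to 8 of the mature miRNA, does most of the pairing to target messages, so miRNAs with the same seed are usually counted as a family. Hairpins that share one primary transcript form a polycistron. In lymphocyte precursors the miR-17 and miR-15/16 families and miR-142 are known as abundant regulators of survival and proliferation.

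The mature sequences below belong to the most abundant entries and to polycistron partners whose levels lay far from theirs. They were read from RefSeq (GRCm38.p6), run 5′ to 3′ and have the seed in capitals. Each entry of the count table sums both strands of the hairpin and all gene copies of that name, so the strand shown is the usual guide strand and was not measured here. For miR-142a both strands are shown, as both are known to be loaded. The first set shares the miR-15/16 seed.
miR-16-5p: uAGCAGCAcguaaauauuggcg
miR-15a-5p: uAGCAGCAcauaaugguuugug
miR-15b-5p: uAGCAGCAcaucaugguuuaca
The second set shares the let-7 seed and shows how near to each other its members are.
let-7f-5p: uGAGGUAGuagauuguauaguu
let-7i-5p: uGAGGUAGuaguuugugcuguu
let-7a-5p: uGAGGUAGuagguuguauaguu
let-7c-5p: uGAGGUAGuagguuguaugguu
let-7b-5p: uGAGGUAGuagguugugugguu
The third set shares the miR-17 seed.
miR-93-5p: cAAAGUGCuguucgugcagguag
miR-20a-5p: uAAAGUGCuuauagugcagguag
miR-17-5p: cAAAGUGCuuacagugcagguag
miR-106b-5p: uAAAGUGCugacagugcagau
The last set holds 4 entries on which single results turn, each with a seed of its own among the 20 most abundant entries.
miR-142a-5p: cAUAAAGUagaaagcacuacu
miR-142a-3p: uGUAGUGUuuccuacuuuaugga
miR-21a-5p: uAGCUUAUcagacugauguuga
miR-25-3p: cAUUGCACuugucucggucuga
miR-223-3p: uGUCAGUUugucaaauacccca

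Of the 21 arms taken for the 20 most abundant entries, 15 (71.4%) start with U. Among all 1404 mature sequences matched to an entry 555 (39.5%) do, and that larger set holds both strands of most hairpins. The mature sequences of let-7a and let-7c differ at 1 of 22 positions, as do those of let-7a and let-7f and of let-7b and let-7c. miR-19a-3p and miR-19b-3p differ at 1 of 23 positions, and so do miR-103-3p and miR-107-3p. How the authors divided reads between such entries is not given in the sources used here, so the split within these pairs is uncertain. Family sums are free of this only if each read was counted once, and in an entry of the family list, which is not known.

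The control libraries held 2900132 to 4012469 miRNA counts each and 20587802 in all, so that 3 counts over the group come to 0.146 CPM. CPM here is the count scaled to a miRNA total of 1000000 in the library, and a share is the same quantity in percent. Spike-ins took 0.165% to 0.326% of the control counts. Between control libraries of 1 population the chi-square of the counts was 27.5 to 97.3 times its degrees of freedom, which is beyond sampling noise, and no library was treated as a duplicate. Such limits cover counting error only, because the handling of molecular identifiers is not given. The pro-B cell label has few miRNA markers of its own. Of a list of 15 miRNAs common in blood cells, 13 had a mean of at least 10 CPM, beside 163 (16.2%) of all entries.

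The repertoire was concentrated in few entries. mir-16 alone took 24.8% ± 0.838 (SD, n = 6) of the counts, the 2 most abundant entries took 38.2% ± 0.961, the top 5 took 58.9% ± 1.06, the top 10 took 71.9% ± 0.475 and the top 20 took 84.7% ± 0.358. A mean of at least 10000 CPM was reached by 17 entries, which held 82.2% of the counts. At least 100 CPM was reached by 105 entries with 99.7% of the counts. The remaining tail was long and thin. Under 10 CPM lay 843 entries (83.8%), which together held 0.04997% of the counts, and 403 of these had no count in any control library.

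mir-16, which restrains cyclins and BCL2, was first in all 6 libraries. Its share was 23.8%, 24.4% and 25.2% in batches 1, 2 and 3 of guide 1 and 24.3%, 24.99% and 26.2% in those of guide 2. The lowest of these is well above any value of the next entry. The ranges of the guides overlapped, though guide 2 was the higher within every batch. The entry sums 2 genes, Mir16-1 at chr14:61631880-61631972 in Dleu2 and Mir16-2 at chr3:69009902-69009996 in an intron of Smc4 (GRCm38, GENCODE M21).

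mir-142a, a miRNA of the blood lineage, was second in all 6 libraries. Its share was 13.2%, 12.8% and 14.2% with guide 1 and 13.8%, 13.8% and 12.6% with guide 2, in batch order. Its single gene lies at chr11:87756864-87756927 on the plus strand in an intron of Mir142hg. mir-21a, a miRNA linked to growth and survival, averaged 6.56%, with ranks from 3 to 5. It was 6.36%, 5.79% and 6.74% with guide 1 and 6.76%, 6.27% and 7.43% with guide 2. Its gene at chr11:86584067-86584158 overlaps an exon of Vmp1. The highest library, guide 2 of batch 3, was the only one in which mir-21a exceeded let-7f.

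Among the let-7 entries, 5 stood among the first 12. let-7f averaged 7.43% ± 0.222, let-7i 6.72%, let-7a 3.29%, let-7c 3.24% and let-7b 1.75%. let-7i exceeded mir-21a in 4 of 6 libraries and let-7a exceeded let-7c in 4 of 6, so these neighbours were not ordered beyond their spread. let-7i comes from a single gene at chr10:122985640-122985724 with no annotated host.

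Below these, the order was firm in places and loose in others. mir-93 (2.40%) was eighth in every library. mir-19b (2.00%), mir-191 (1.99%), mir-29a (1.91%), let-7b and mir-25 (1.66%) followed, and each of the first 4 of these exceeded the next in only 3 to 5 of 6 libraries. mir-30e (1.48%) exceeded mir-20a (1.44%) in 3 of 6, and mir-103 (1.06%) exceeded mir-101b (1.04%) in 3 of 6. mir-223 (0.889% ± 0.251), mir-26b (0.841%) and mir-101a (0.717%) closed the 20, with mir-223 above mir-26b in 2 of 6 libraries, and mir-27b (0.696%), mir-19a (0.688%) and mir-92a (0.687%) came next. mir-101a exceeded mir-27b in 4 of 6 libraries, so membership at the 20th place was not settled by these data. The same 20 entries were found when each control library was left out in turn.

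**Figure D1:**
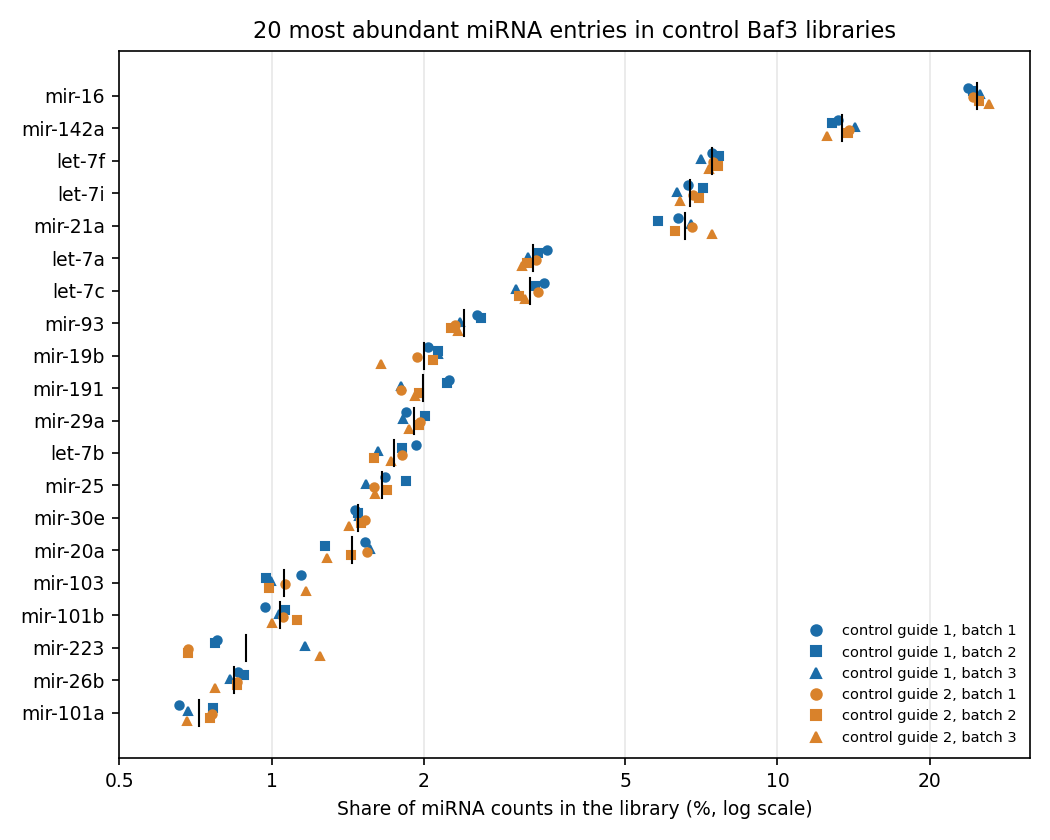
Share of miRNA counts (percent, log axis) of the 20 most abundant entries in each of the 6 control libraries, with colour for the guide, symbol for the batch and a black bar for the mean. mir-16 lies between 23.8% and 26.2%, while mir-223 splits by batch, with the batch 3 libraries at 1.16% and 1.25% and the other 4 from 0.683% to 0.779%.

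Grouped into seed families by their names, 2 families took close to equal parts of the repertoire. The mir-15/16 family held 26.3% ± 0.770 (SD, n = 6) and the let-7 family, whose members repress growth genes such as Ras and Hmga2, held 23.5% ± 0.806. They differed in makeup. mir-16 was 94.3% of the first family, whereas let-7f, the leading member of the second, was 31.6% of it. The mir-15/16 share was the higher in all 6 libraries, from 25.3% to 27.6% against 22.4% to 24.5% for let-7, and these ranges do not overlap. An entry named let-7j held a further 0.592% and was not in the family list.

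Next came the mir-17 family with 4.10% ± 0.176, of which mir-93 was 58.6%, and the mir-19 family with 2.68% ± 0.274. The mir-29 family held 2.61%, the mir-92 family, led by mir-25 with 68.9% of it, 2.40%, the mir-30 family 2.19%, the mir-101 group 1.76%, the mir-26 family 1.41% and the family of mir-103 and mir-107 1.18%. The mir-101 group pools different seeds as read from RefSeq, with mir-101b at 1.04% and mir-101a at 0.717%. The mir-30 share was the steadiest of these, from 2.13% to 2.23%. All 28 listed families together held 71.9% of the counts and the 5 largest 59.3%. At the other end, the mir-99/100 family held 0.000469% and the mir-10 family 0.00370%. mir-148b was 99.4% of the family that it forms with mir-148a and mir-152.

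Polycistrons were summed over entries with a single gene, since an entry with several genes cannot be assigned to one cluster. The mir-106b/25 cluster in Mcm7, a replication helicase gene, held 4.12% ± 0.224. The mir-17/92a cluster in Mir17hg, a known oncogenic cluster in B cells, held 2.41% ± 0.191 from mir-17, mir-18a, mir-19a and mir-20a, and 5.09% when mir-19b and mir-92a were added, each of which has a second gene in the paralogous cluster of mir-106a and mir-363. The single-gene entries of that cluster on chromosome X held 0.000502%. The cluster of mir-191 and mir-425 held 2.36% ± 0.189, that of mir-322 and mir-503 on chromosome X 0.986% and the mir-30b/30d cluster 0.537%. The cluster of mir-221 and mir-222, repressors of Kit and of a cell cycle inhibitor, held 0.353%.

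Members of one cluster were at very unequal levels in the same library. Of 19 pairs of a cluster's leading member and another member, both of a single gene and at 10 CPM or more, 17 differed by at least 2-fold and 6 by at least 10-fold, with a median of 7.11-fold. The SD of a pair's log2 ratio over the 6 libraries was 0.07 to 0.33. Differences of at least 2-fold were thus far larger than the spread between libraries, while the nearest pair, mir-195a to mir-497a, was at -0.40 ± 0.18. The leading member was taken as the highest by these same counts, and several pairs share one, so the pairs are not independent. A ratio of counts between 2 miRNAs also holds any difference in how the library kit captures them, which was not tested.

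The mir-106b/25 cluster held both a near and a distant pair. mir-93 was at 25433, 25967 and 23533 CPM in batches 1 to 3 of guide 1 and 23057, 22627 and 23310 CPM in those of guide 2. mir-25 lay close to it at 16786, 18439 and 15380 CPM and 15913, 16871 and 15983 CPM, a log2 ratio to mir-93 of -0.53 ± 0.07 (SD, n = 6). mir-106b, which has the same seed as mir-93, was at 716.5, 607.9 and 673.1 CPM and 755.0, 606.5 and 706.7 CPM. Its log2 ratio to mir-93 was -5.15 ± 0.16, so that mir-93 was 35.5-fold higher. The 3 hairpins lie within one stretch of chromosome 5, with mir-25 at chr5:138165321-138165404 and mir-93 at chr5:138165523-138165610 on the minus strand.

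In the mir-17/92a cluster, mir-20a averaged 14387 CPM, mir-19a 6878 CPM, mir-17 1894 CPM and mir-18a 912.7 CPM, in that order in every library. mir-17 and mir-20a share a seed and differ at 2 of 23 positions, so reads of one could be counted for the other. mir-425 stood at 3675 CPM ± 549 against 19904 CPM ± 1977 for its neighbour mir-191, a log2 ratio of -2.45 ± 0.30. mir-222 was lower than mir-221 by 8.43-fold (log2 ratio -3.08 ± 0.11), although they share a seed.

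The levels in the cluster of mir-322 and mir-503 were graded. mir-322, a member of the mir-15/16 family, averaged 6448 CPM, mir-503 1966 CPM, mir-542 755.5 CPM, mir-351 403.3 CPM and mir-450b 291.1 CPM. Their log2 ratios to mir-322 were -1.71, -3.09, -4.00 and -4.47. mir-450a, an entry that sums 2 genes, was lowest at 46.0 CPM, 140.0-fold below mir-322. The cluster of mir-188, mir-362, mir-500, mir-501 and mir-532 in Clcn5 had mir-532 at 1461 CPM and mir-500 at 15.01 CPM, a 98.1-fold difference and the widest among the 19 pairs of single-gene entries. Only mir-25 in its cluster and mir-195a, at a log2 ratio of -0.40 to mir-497a, were within 2-fold of the leading member among these 19 pairs.

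The clusters of mir-15a and mir-15b each hold 1 of the 2 mir-16 genes. mir-15a averaged 984.6 CPM ± 57.8 and mir-15b 4582 CPM ± 392, against 248316 CPM for mir-16. The log2 ratio to mir-16 was -7.98 ± 0.12 for mir-15a and -5.76 ± 0.16 for mir-15b. Since the mir-16 entry sums both genes, neither ratio belongs to 1 cluster, and the part of each gene cannot be told apart. mir-15b exceeded mir-15a in all 6 libraries, with 4056 CPM against 896.0 CPM in guide 2 of batch 3 and 5086 CPM against 1038 CPM in guide 1 of batch 2.

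**Figure D2:**
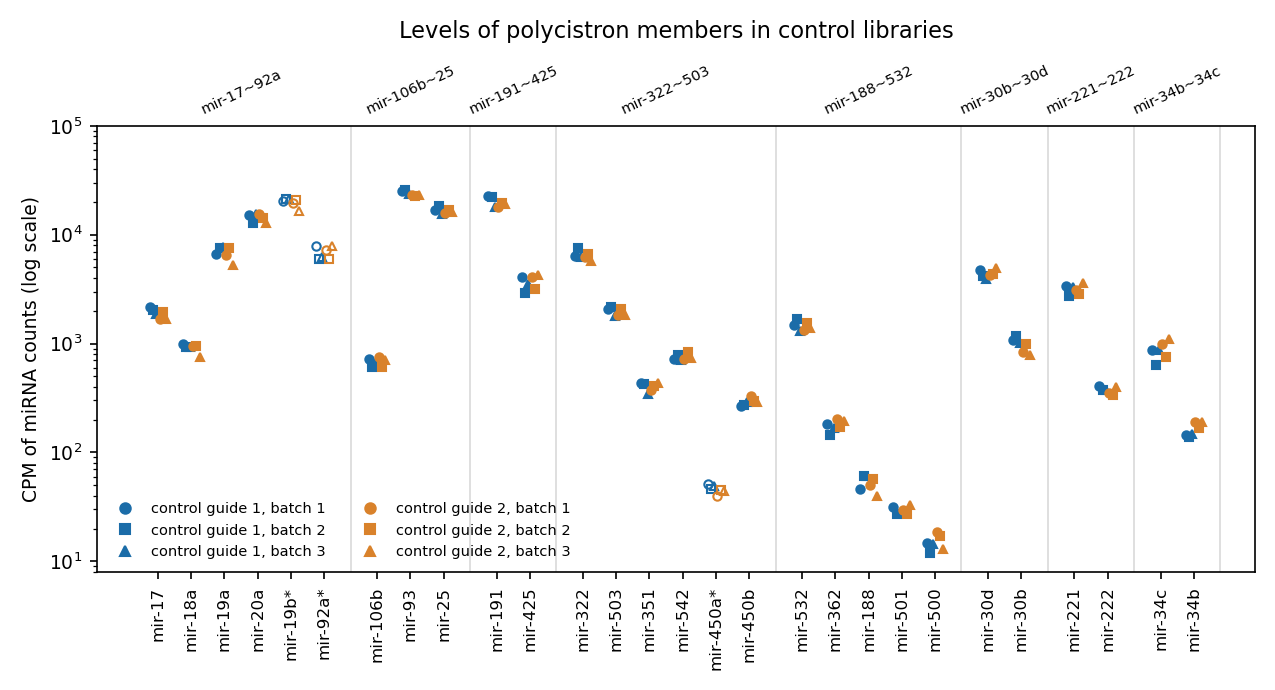
CPM (log axis) of the members of 8 polycistrons in the 6 control libraries, with colour for the guide, symbol for the batch and open symbols with an asterisk for entries that sum several genes. Members of a cluster are spread over more than a factor of 10 in 4 of the clusters, while the 6 libraries of a member lie close together.

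Clustered genes held more of the counts than their number. The 246 entries whose every gene copy lies within 10 kb of another miRNA gene on the same strand were 24.5% of entries and held 61.6% ± 0.627 of the counts, or 48.9% of the counts left when mir-16 was removed. The 693 entries with no such neighbour held 37.0%, or 49.3% without mir-16. By host, entries that overlap an exon of another gene held 22.2% of the counts, intronic ones 22.9%, those with no host gene 11.1%, and entries whose copies differ in this, mir-16 among them, 43.1%. Without mir-16 the entries with differing copies held 24.4%.

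Among the blood miRNAs, mir-142a and mir-21a led, followed by mir-191 and mir-29a. mir-223, best known from myeloid cells, averaged 8888 CPM. The regulators of lymphocyte activation mir-155 and mir-146a averaged 1618 CPM ± 69.0 and 1772 CPM ± 214.1, and mir-181a, a regulator of lymphocyte signalling, 2875 CPM ± 422. mir-221, mir-24 and mir-17 lay between 1894 and 3158 CPM. mir-150, a marker of mature lymphocytes, was at 13.4 to 23.7 CPM. mir-342 averaged 4.69 CPM and mir-34a, a p53 target, 6.99 CPM, the 2 of the 15 that lay under 10 CPM.

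Lists of miRNAs of other lineages held 111 entries in the table, of which 94 (84.7%) had a mean under 10 CPM and 56 had no count. This is near the 83.8% of all entries that lay under 10 CPM. The lists differed among themselves. All 40 entries of the imprinted Meg3 region were under 1 CPM and 35 had no count. All 14 of the pluripotent list were under 10 CPM, with mir-302b highest at 2.47 CPM, and all 7 of the muscle list, with mir-133a and mir-206 at 0 counts. The erythroid mir-451a had 1 count over all control libraries. mir-486a and mir-486b had the same count in every control library, 21 in sum each. The liver miRNA mir-122 averaged 6.27 CPM, the neural mir-124 had no count and mir-9 averaged 8.35 CPM. For an entry with no count, 0.146 CPM is an approximate upper limit from counting error at this depth and not a maximum.

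A few members of these lists were present. mir-126a, known from endothelium and blood stem cells, was at 3832, 4336 and 3929 CPM with guide 1 and at 3694, 4131 and 4096 CPM with guide 2. This is far above the other members of the stromal and endothelial list, where mir-143, mir-199a and mir-199b averaged 13.0, 15.4 and 14.4 CPM and mir-145a and mir-214 0.252 and 0.0575 CPM. mir-34c, known from ciliated and germ cells, averaged 870.1 CPM, mir-34b 163 CPM and mir-449a 105 CPM, with mir-34b 5.29-fold below mir-34c in their common cluster. mir-219a, a miRNA of myelinating cells, averaged 322.4 CPM. In the epithelial list, mir-141 averaged 83.8 CPM, mir-200a 48.3 CPM and mir-200c 14.4 CPM, while mir-205 and mir-203 were at 0.139 and 0.107 CPM.

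**Figure D3:**
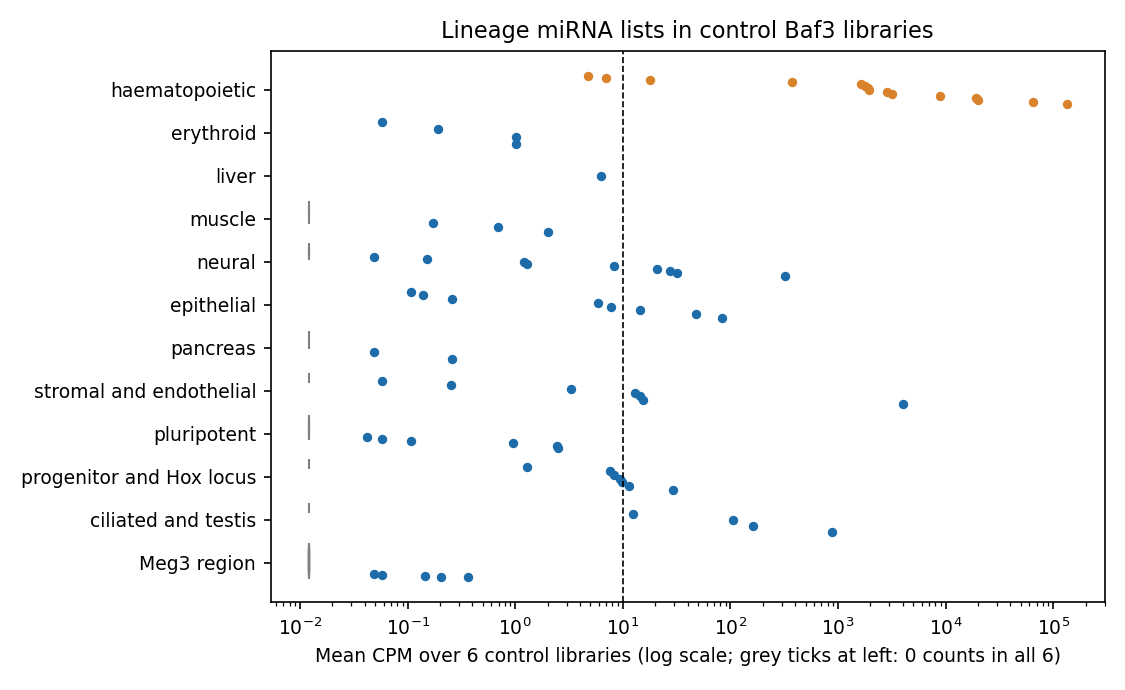
Mean CPM over the 6 control libraries (log axis) of each miRNA of 12 lists, with the blood list in orange, the others in blue, a dashed line at 10 CPM and grey ticks for members with no count. Of the blood list 13 of 15 members lie right of the line, of the other lists 17 of 111.

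In the list of progenitor and Hox locus miRNAs, 6 of 8 members (75%) were under 10 CPM in control cells, beside 83.8% of all entries, with mir-10a at 29.4 CPM and mir-196b at 11.4 CPM. The sum over this list was 57.5 to 117 CPM in the control libraries, 591 to 1009 CPM in SAFB and 2212 to 3525 CPM in ERH, with no overlap. In edgeR's quasi-likelihood test 56% of 273 entries were called between SAFB and control at an adjusted p under 0.05, with 84 (30.8%) higher and 69 (25.3%) lower. Between ERH and control the test called 147 (53.8%), of which 72 (26.4%) were above and 75 (27.5%) below control. Total counts put 108 above and 33 below in ERH, and spike-in scaling put 72 above and 19 below. In SAFB, spike-in scaling put 44 above and 58 below. All 7 tested members of the progenitor and Hox list were higher in each comparison, with a median log2 fold change of 3.46 and 4.69. Higher calls also occurred in other lists. Of 7 tested entries of the neural list, 5 were higher and 1 lower in each comparison. The medians of 2.04 and 3.93 are the values of mir-129, which had 3 counts over all control libraries. Another of the higher entries, mir-153, had no count there. The single tested entry of the pancreas list was higher in both, at 2.69 in SAFB and 3.80 in ERH. That of the liver list (1.33) and the 2 tested of the erythroid list were called, as higher, in ERH only. The single tested entry of the muscle list was called in neither comparison. That of the pluripotent list was called, as lower, in ERH only (-1.57). Members could pass the filter on low counts through the knockout libraries, where they are high. These numbers of calls therefore do not speak for the lists as a whole. The 2 comparisons share the control libraries. None of the 40 Meg3 region entries had the counts to be tested.

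No entry was called between the 2 control guides. In edgeR's quasi-likelihood test with Benjamini-Hochberg adjustment 0 of 273 entries (0%) were called between guide 2 and guide 1, and 7 had an unadjusted p under 0.05. DESeq2 called 0 as well, with 10 at an unadjusted p under 0.05. The 20 most abundant entries had log2 differences from -0.12 to 0.14. The lowest p-values were those of mir-3061 (1.76, SE 0.67), mir-148a (-0.63, SE 0.25) and mir-8118 (-1.55, SE 0.70), each with an edgeR adjusted p of 0.969. These differences were unsteady when each control library was left out in turn. They ran from 1.37 to 2.20 for mir-3061, -0.77 to -0.36 for mir-148a and -2.52 to -0.87 for mir-8118. With library sizes taken from spike-in counts 96 entries were called, all higher with guide 2. The median log2 difference of all entries was then 0.63, while it was -0.02 with TMM scaling, and the spike-in share was 0.274% to 0.326% with guide 1 and 0.165% to 0.204% with guide 2.

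Among the 105 entries with at least 100 CPM, the median coefficient of variation over the 6 control libraries was 8.92%. The least variable were mir-148b (2.03%), mir-30e (2.37%), let-7f (2.99%), mir-16 (3.38%) and let-7j (3.57%). The most variable were mir-223 (28.2%), mir-1983 (22.6%), mir-484 (22.3%), mir-33 (21.6%) and mir-34c (18.7%).

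The spread of mir-223 followed the batch. It was at 7787, 7743 and 11640 CPM in batches 1, 2 and 3 of guide 1 and at 6826, 6845 and 12488 CPM in those of guide 2. Both batch 3 libraries lay above the other 4. A test of batch within the 6 control libraries was chosen after these values were seen. In edgeR's quasi-likelihood test 6 of 272 entries (2.21%) were called for batch, namely mir-223, mir-34c, mir-425, mir-484, mir-181a and mir-26a. mir-223 was 0.78 higher in batch 3 than in batch 1 on the log2 scale (adjusted p 1.2e-07). The other 5 had their largest difference in batch 2, from -0.35 for mir-26a to -0.63 for mir-484 against batch 1.

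This pattern was not shared by all populations. Over all 18 libraries, 1 entry (0.366%), mir-146a, was called for batch, and mir-223 was 0.35 higher in batch 3 (edgeR adjusted p 0.177). In batch order mir-223 was at 15510, 15380 and 14772 CPM in SAFB guide 1 and at 17072, 16576 and 19712 CPM in SAFB guide 2. In ERH it was at 8905, 9119 and 14547 CPM with guide 1 and at 10825, 8906 and 10512 CPM with guide 2. Batch 3 was thus clearly the highest in 1 ERH population and, by less, in 1 SAFB population. The edgeR adjusted p of mir-223 in control libraries was 0.00013 under DESeq2 size factors and 2.1e-07 under total counts, and the call was lost with spike-in scaling (adjusted p 1.00), where the log2 difference was 0.76 against 0.78. Leaving out 1 library leaves 1 in its batch, which is then assumed to vary like the others, so that such fits say little of stability. Their count of calls ran from 1 to 35. Since these values prompted the test, none of these fits is independent support.

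**Figure D4:**
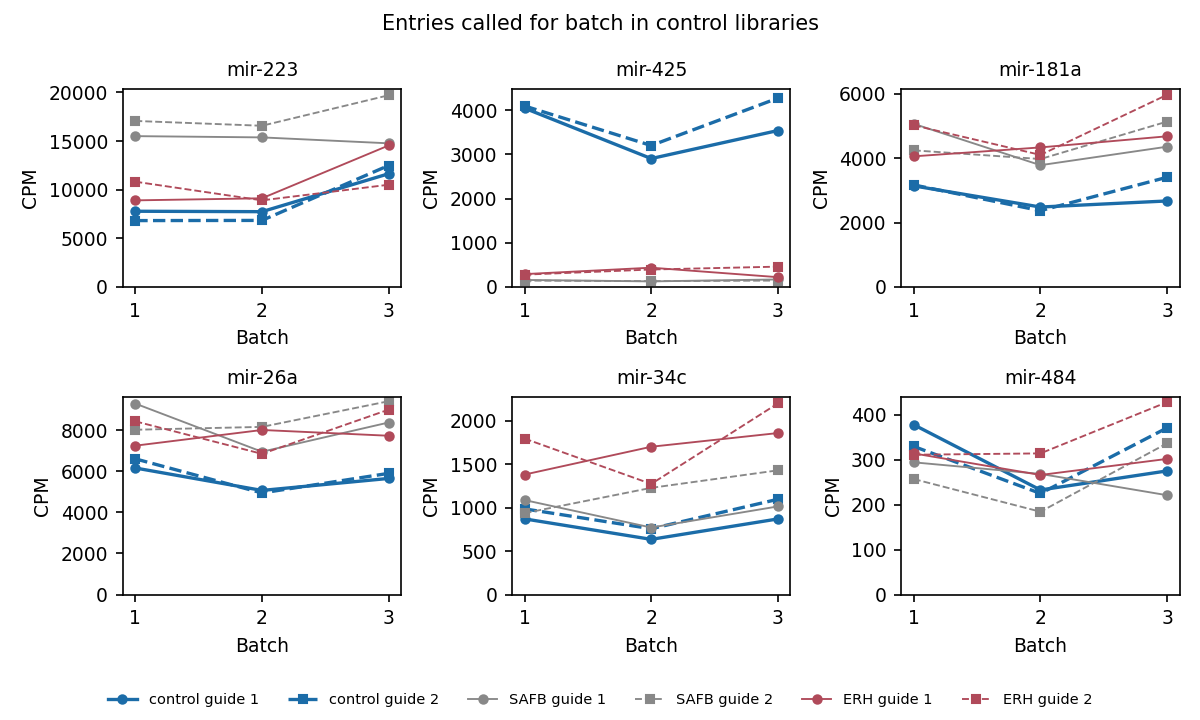
CPM by batch of the 6 entries called for batch in control libraries, with control populations in blue, SAFB in grey and ERH in red, solid lines for guide 1 and dashed lines for guide 2. The control lines of mir-223 are flat from batch 1 to batch 2 and are higher in batch 3, at 11640 and 12488 CPM, and the line of SAFB guide 1 does not share this.

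The control repertoire and those of the knockouts had nearly the same leading entries. Of the 20 most abundant entries in control, 19 were among the 20 of SAFB and 19 among those of ERH, and in both mir-340 took the place of mir-26b. Of the 20, edgeR called 11 in SAFB, where 5 were above control and 6 below, a share near the 56% of all entries tested. In ERH it called 16, with 1 above and 15 below, beside 53.8% of all entries tested. The ERH split depends on the scaling, with 4 higher and 3 lower under total counts and 1 and 1 under spike-in scaling. In SAFB, spike-in scaling left 4 calls, mir-223 above control and let-7f, mir-19b and mir-20a below. Total counts moved the median log2 fold change of all entries in ERH from -0.06 to 0.24. Among those with a larger change, mir-19b had an edgeR log2 fold change of -0.85 ± 0.087 (SE) in SAFB and -0.43 ± 0.087 in ERH, with adjusted p-values of 1.5e-08 and 0.00019. The ERH call was lost with total counts (-0.12, edgeR adjusted p 0.203) and with spike-in scaling (-0.13, edgeR adjusted p 0.752).

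let-7f was at -0.68 and -0.83 and mir-20a at -0.74 and -0.63, all 4 with an edgeR adjusted p under 0.05. In ERH, let-7f was at -0.52 with total counts and -0.54 with spike-in scaling, and mir-20a at -0.32 with total counts, all 3 still called. The call of mir-20a in ERH was lost with spike-in scaling (-0.36, edgeR adjusted p 0.232). mir-16 was at 0.21 in SAFB and -0.27 in ERH. Among the scalings, its direction turned only with spike-ins in SAFB and only with total counts in ERH. In SAFB it was at 0.26 with DESeq2 size factors (edgeR adjusted p 2.0e-05) and 0.25 with total counts (edgeR adjusted p 8.9e-08). In ERH mir-16 was at 0.03 with total counts (edgeR adjusted p 0.414) and -0.0016 under spike-in scaling. The latter put SAFB at -0.06 (edgeR adjusted p 0.856). mir-223 was 0.86 higher in SAFB than in control (SE 0.15, edgeR adjusted p 4.0e-05). On the plain CPM scale, without TMM, the log2 difference of the means within batches 1, 2 and 3 was 1.16, 1.13 and 0.50, smallest in batch 3, where control levels were high. For ERH, whose edgeR value was -0.06, the same CPM differences were 0.43, 0.31 and 0.04, so the direction depends on the scaling.

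SAFB libraries were more concentrated than control libraries. The 10 most abundant entries of each library took 74.0% ± 0.376 in SAFB against 71.9% ± 0.475 in control, a difference of 2.10 percentage points with no overlap. The exact two-sided permutation test gave p = 0.0022, the smallest that 6 against 6 libraries can give (adjusted p = 0.0097 over 9 tests). It takes libraries as replicates, though each genotype has only 2 populations, so p does not measure the spread between populations. Within batches the difference was 2.13, 2.37 and 1.78. In ERH the share was 71.0% ± 0.275, lower by 0.94 percentage points with overlap (exact permutation p = 0.0043, adjusted p = 0.013).

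The effective number of entries, the exponential of the Shannon entropy of the shares, counts how many equally abundant entries would give the same diversity. It was 21.9 ± 0.635 in control, 19.2 ± 0.399 in SAFB (exact permutation p = 0.0022, adjusted p = 0.0097) and 22.5 ± 0.388 in ERH (exact permutation p = 0.117, adjusted p = 0.21). Without mir-16 the SAFB difference went from -2.75 to -0.82 (exact permutation p = 0.067), and the ERH difference went from 0.53 to 1.40 (exact permutation p = 0.0043). Entries with at least 1 count numbered 421.3 ± 23.6 in control, 429.3 ± 10.3 in SAFB and 442.7 ± 9.95 in ERH, and neither difference passed the test (exact permutation p = 0.463 and p = 0.0714). At equal depth the SAFB difference was -0.833 entries (exact permutation p = 0.935) and the ERH difference 26.8 entries (exact permutation p = 0.0087). Between the control guides, 3 against 3 libraries cannot go below an exact p of 0.1, and none of the 3 measures was below 0.2. Within batches, guide 2 minus guide 1 was 0.88, 0.82 and 0.26 percentage points for the share of the 10 leading entries, and -1.05, -0.93 and -0.24 for the effective number, with 1 sign in all 3 batches for each. For entries detected it was -27, -59 and 16.

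**Figure D5:**
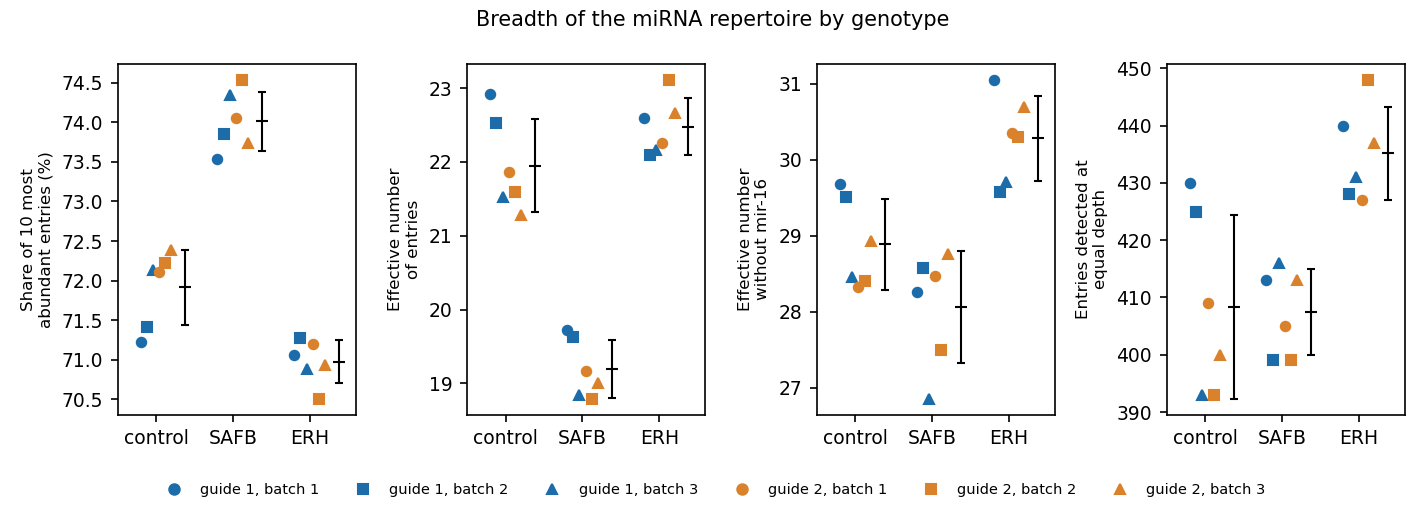
Share of the 10 most abundant entries, effective number of entries with and without mir-16, and entries detected at equal depth, for each of the 18 libraries by genotype, with the mean and SD over 6 libraries as a bar to the right of each group. SAFB libraries lie apart from control in the first 2 panels, and overlap it in the third.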

How the data were processed

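The data are small RNA libraries of Baf3 cells. Per the labels' protocols, 400 ng of total RNA was mixed with 4 spike-in RNAs and 100 ng of the mix was used with the QIAseq miRNA Library Kit. The values deposited by the authors are whole-number read counts per miRNA entry, not normalized. SAMtools is named in the submitters' processing notes. The aligner, genome build, treatment of multiply matching reads and collapsing of molecular identifiers are not given in the sources used here.

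Shares and CPM were computed here from the deposited counts without spike-ins. Counts of all 18 libraries were fitted with edgeR 4.0.16 (limma 3.58.1, R 4.3.3), TMM scaling and filterByExpr by population with its minimum count of 10, which left 273 entries. Calls were made at a Benjamini-Hochberg adjusted p under 0.05. DESeq2 1.42.0 was an alternative. The fit was checked on simulated counts. Per-library measures were compared by exact permutation tests that ran through all arrangements, in Python 3.11.15 with NumPy 2.4.6. Correlations were computed with SciPy 1.17.1.

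Entries were matched by name to GENCODE M21 (946 of 1006) and RefSeq GRCm38.p6 mature sequences (840). The named entries were the 20 most abundant, list members, the lowest p-values between guides and the 5 most and least variable. The members, lists and tests were chosen with earlier results of these data known. The batch number in the labels pairs libraries. Deviations from the population means, over 105 entries, correlated by 0.25, 0.75 and 0.27 between control libraries of one batch, though guide 1 of batch 1 and guide 2 of batch 3 also correlated by 0.45. Alternatives covered scaling, filter, test, batch, depth, mir-16, pseudocount, thresholds and left-out libraries. The polycistron lists of the Sfmbt2 and Meg3 regions were not summed as clusters.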

Additional observations from a re-analysis of the deposited data

Results flagged for a closer look

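A search for single libraries that stand apart covered 56 sets of 6 values and marked 2, where chance marks about 1 in 20. The log2 ratio of mir-222 to mir-221 was -2.88 in control guide 1 of batch 2, above the -3.16 to -3.06 of the other 5 control libraries, a gap of 0.654 of the range. In that library mir-221 was at 2723 CPM, its lowest control level. The number of entries detected was 410 in SAFB guide 2 of batch 2, below the 428 to 438 of the other 5 SAFB libraries, a gap of 0.643 of the range.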

How the results depend on the processing

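Scaling to spike-ins called 96 entries between the control guides (0 otherwise) and 91 in ERH (147 otherwise), and put mir-148a at 0.026 between guides and mir-16 at -0.057 in SAFB. Total counts put mir-16 at 0.028 in ERH. The calls of mir-25 in SAFB (0.29, edgeR adjusted p 0.30) and mir-101b in ERH (-0.32, edgeR adjusted p 0.287) were also lost with spike-in scaling. With the replicate block by batch, 0 entries were called between guides, 84 above and 71 below control in SAFB, and 72 above and 74 below in ERH. Permuting within batches left the SAFB difference in the top 10 share of 2.10 at an exact p of 0.0093, and the block changed no other call of the per-library measures. Leaving out each library gave 139 to 151 calls in SAFB, at least 139 in ERH and 1 to 35 for batch in control. The batch term called 1 entry over 18 libraries and 0 with spike-in scaling. Without control guide 1 replicate 3 it called 35, without guide 2 replicate 3 it called 27, and without guide 1 replicate 1, guide 1 replicate 2 or guide 2 replicate 2 it called 1. In each of these fits 1 batch has a single library, assumed to vary like the others, so the counts say little of stability.

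The effective number without mir-16 was -0.82 for SAFB and 1.40 for ERH. With control guide 2 alone the ERH difference was 0.90 (exact permutation p = 0.024). Leaving out each control library gave 0.396 to 0.722, and without guide 1 replicate 1 it was 0.722 (exact permutation p = 0.024). The SAFB difference in entries detected was -0.833 at equal depth, -3.67 with control guide 1 alone and 19.7 with guide 2 alone (exact permutation p = 0.036). For ERH it was 26.8 at equal depth, 33 with control guide 2 alone (exact permutation p = 0.012) and 16.3 to 28.1 with each control library left out, passing an exact permutation p of 0.05 without guide 1 replicate 1 (25.9) or replicate 2 (28.1). Why these settings moved the values was not tested.

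Polycistrons counted with entries of several genes held 5.09% (mir-17/92a), 2.25% (mir-29a/29b-1), 4.99% (let-7b/7c-2), 1.64% (mir-30c-1/30e), 0.986% (mir-23b/24-1) and 25.3% (mir-15b/16-2), higher by construction. Depth limits statements on entries near 0.146 CPM.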
